A study of Arabidopsis thaliana with 24 samples.

Results

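Arabidopsis thaliana seedlings carrying the arf19-1 mutation were compared with wild-type Columbia (Col) seedlings after a mock treatment without auxin. The comparison holds 6 of the 24 oligonucleotide arrays of the series, 3 from arf19-1 and 3 from Col, chosen by their genotype and treatment labels. Seedlings had grown for 7 days in shaken liquid medium that held 1.5% sucrose, in days of 16 h light and nights of 8 h, and both groups were given the ethanol solvent for 2 h at 24 °C. The other 18 arrays come from arf19-1 and Col given the auxin indole-3-acetic acid (IAA) at 5 µM, and from the nph4-1 arf19-1 double mutant and the nph4-1 mutant of ARF7, each with IAA or solvent, with 3 arrays a group. The comparison asks what the loss of ARF19 changes in seedlings to which no auxin was added. Each mutant is represented by 1 allele, whole seedlings were used, and no label tells whether arrays within a group stem from separate cultures, so p-values may cover technical spread only.

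Auxin response factors (ARFs) are transcription factors that bind auxin response elements in the promoters of their target genes. At low auxin they are held by Aux/IAA repressors, and auxin has these repressors degraded through receptors of the TIR1/AFB type. ARF7 (also called NPH4) and ARF19 are related activators of this kind, known for overlapping roles in lateral root formation and in the early transcriptional response to auxin.

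The deposited values are log2 signal, with a floor at 5.64 below which the authors give no lower value. Of 22810 probe sets, 64 controls and 6989 at the floor on all 24 arrays were left out, and 15757 were tested, of which 8616 are paired with exactly 1 gene. A probe set is called where the adjusted p of limma's moderated test, fitted to all 24 arrays, lies under 0.05. Errors after a log2 difference are standard errors (SE) of that fit, and differences are arf19-1 minus Col. No probe set is paired with ARF19 or ARF7 in the annotation used here, so the loss of the ARF19 transcript itself was not analysed here. The array medians of the 6 arrays lay between 6.655 and 6.705. The median SD between arrays of a group was 0.117 in the arf19-1 control group and 0.181 in the Col control group, the highest of the 8 groups. The fit shares 1 estimate of spread per probe set among all groups, so its SE can be too small for comparisons with Col control. Per the labels, the submitters exchanged the data of Col control 2 and Col control 3 once since their first release. No pair of arrays in the files used here shares over 0.021% of its values above the floor. Between the 3′ and 5′ control probe sets, log2 signal differed by 0.67 to 0.93 for actin in arf19-1, against 0.50 to 0.93 in Col, and by -0.39 to -0.27 for GAPDH in arf19-1, against -0.51 to -0.39 in Col.

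Seedling tissue was present in both groups by its markers. All 8 probe sets of the nuclear photosynthesis list were measured, with summed linear signals of 36800 to 41000 in arf19-1 and 39400 to 44500 in Col. Both root hair expansin genes were measured, with sums of 455 to 574 in arf19-1 and 284 to 511 in Col. Stomatal lineage markers, 3 of 4 tested, summed to 302 to 318 in arf19-1 and 338 to 434 in Col. The endodermis and xylem list, 3 of 4 tested, summed to 317 to 334 in arf19-1 and 278 to 318 in Col. Of 44 pollen and flower probe sets only 9 rose above the floor anywhere in the series, summing to 1580 to 1680 in arf19-1 and 1370 to 1690 in Col, and the single seed storage probe set stayed at the floor throughout. The sums of the stomatal list did not overlap between the groups, and whether the makeup of the seedlings plays a part in the results below was not tested. In whole seedlings, fewer cells of a type and less RNA per cell cannot be told apart.

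Few probe sets were called, and their differences were modest. Of the 15757 probe sets, 129 were called (0.819%), of which 53 were higher in arf19-1 (0.336%) and 76 lower (0.482%). The median difference was 0.61 among the higher ones and -0.63 among the lower ones, against 0.007 over all probe sets tested. Only 11 of the called probe sets changed at least 2-fold (0.0698%), 2 upward and 9 downward. The arf19-1 and Col arrays did not overlap for any of the 129, where 7.09% of all probe sets lay wholly higher and 4.95% wholly lower in arf19-1. The 129 were chosen by their difference on these same arrays, so their lack of overlap is a description only. The division into higher and lower moved with scaling: quantile normalization called 43 higher and 108 lower, and a shift of each array to a common median called 37 higher and 90 lower.

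The number of calls depended on single arrays. It was 143, 71 and 28 without arf19-1 control 1, 2 and 3 in turn, and 36, 927 and 61 without Col control 1, 2 and 3. Of the 129, 21 were called in all 6 of these omissions. Fitted on the 6 arrays alone, 1 probe set was called, while 1182 (7.5%) had an unadjusted p under 0.05. These included all 129, which were chosen by their difference on the same 6 arrays. Among the called probe sets, 62 are paired with 1 gene (0.72% of such probe sets), 26 higher (0.302%) and 36 lower (0.418%). The other 67 have no single gene in the annotation and are not named beyond the 4 with the largest differences.

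**Figure D1:**
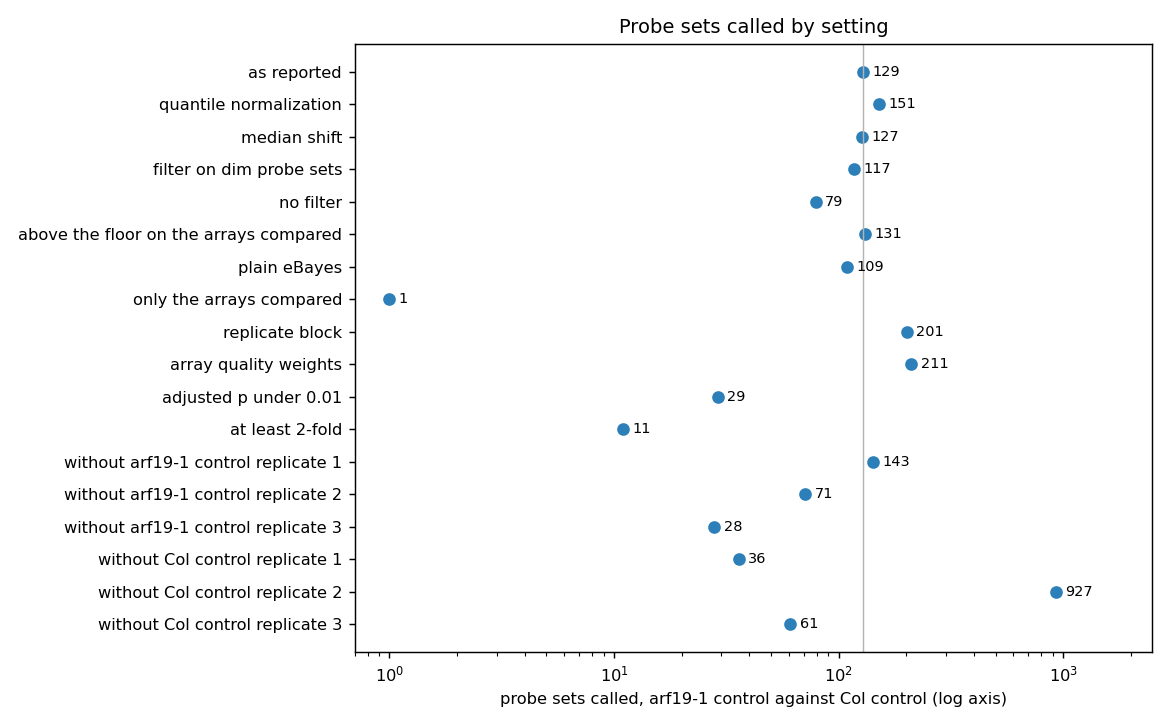
Number of probe sets called between arf19-1 control and Col control, on a log axis, as reported (129, grey line) and under each alternative setting or array left out. Counts run from 1, with only the 6 arrays compared, to 927, without Col control 2.

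The clearest difference belongs to a probe set without a gene name in the annotation, 256010_at. Its signal lay at the floor of 5.64 on all 3 arf19-1 control arrays, against 7.08, 6.95 and 7.15 on the Col control arrays. This is a difference of -1.42 (SE 0.13, adjusted p = 1.3e-05), or at least 2.67-fold lower in arf19-1, and it is the probe set still called on the 6 arrays alone (adjusted p = 0.027). It lay at the floor on all 12 arrays that carry arf19-1, with or without nph4-1 and IAA, and above it on all 12 others, and no other probe set had this pattern. With IAA it was at the floor on all 3 arf19-1 arrays, against 8.27, 7.98 and 8.29 in Col. Within Col, IAA raised it by 1.12 (SE 0.13, adjusted p = 2.7e-06), and in nph4-1 the IAA difference was 0.24 (SE 0.13, adjusted p = 0.48). Leaving out any of the 6 control arrays kept its adjusted p at or below 0.00027.

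The named genes that fell most in arf19-1 included ARL, a gene of organ growth, and the transporter genes NPF6.4 and SWEET2. Unless another name is given beside it, a gene written as a locus number has no role given here. AT5G48490 had the largest fall among genes with a single probe set assignment, with 7.66, 7.24 and 7.16 in arf19-1, against 8.72, 8.44 and 8.83 in Col. Every mutant array lay well below every Col array, and the difference was -1.31 (SE 0.24, adjusted p = 0.01). AT5G01015 had 6.13, 6.10 and 6.02 in arf19-1 and 7.08, 6.76 and 7.11 in Col, a difference of -0.90 (SE 0.14, adjusted p = 0.0036), and was called in all 6 omissions. ARL (ARGOS-like), which promotes the growth of organs through cell expansion, had 8.01, 8.52 and 8.01 in arf19-1, against 9.06, 8.59 and 9.57 in Col. The gap between its groups was narrow at arf19-1 control 2 and Col control 2. Its difference of -0.89 (SE 0.21, adjusted p = 0.047) was called in 2 of 6 omissions.

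AT1G62510 and AT1G22690 were called lower in arf19-1 whichever array was left out. AT1G62510 had 7.66, 7.90 and 7.82 in arf19-1 and 8.74, 8.23 and 8.92 in Col, a difference of -0.84 (SE 0.13, adjusted p = 0.0034). AT1G22690 had 7.94, 8.11 and 8.08 in arf19-1 and 8.90, 8.93 and 8.81 in Col, also a difference of -0.84 (SE 0.12, adjusted p = 0.0028). Both were called in all 6 omissions, and the Col arrays of AT1G22690 lay within a narrow band well above the mutant's. AT3G21670, annotated as NPF6.4 of the nitrate and peptide transporter family, had 6.72, 6.93 and 6.54 in arf19-1, against 7.55, 7.22 and 7.89 in Col, a difference of -0.82 (SE 0.15, adjusted p = 0.011). SWEET2, a sugar transporter of the vacuolar membrane, had 6.35, 6.31 and 6.48 in arf19-1, against 6.84, 6.80 and 7.39 in Col, a difference of -0.63 (SE 0.13, adjusted p = 0.022). The mutant arrays of SWEET2 lay close together, and Col control 3 was the highest of the other group. The remaining genes among the 15 largest falls were AT3G01060 (-0.80), AT2G42110 (-0.74), AT3G50560 (-0.72), P1R1 (-0.70), AT5G64850 (-0.68), AT4G18740 (-0.67), AT5G54530 (-0.66) and AT1G36940 (-0.66).

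Further down, falls were seen in HPR and PYE, which were singled out after their values were seen. HPR encodes hydroxypyruvate reductase, an enzyme of the photorespiratory cycle in peroxisomes. It had 10.23, 10.13 and 10.02 in arf19-1, against 10.79, 10.59 and 10.85 in Col, a difference of -0.62 (SE 0.10, adjusted p = 0.0034), and was called in all 6 omissions. PYE (POPEYE), a transcription factor of the iron deficiency response, had 6.31, 6.20 and 6.22 in arf19-1, against 6.87, 6.56 and 6.62 in Col, a difference of -0.44 (SE 0.09, adjusted p = 0.022). AT5G47390, the MYB-related factor KUA1 that promotes cell expansion, had 8.41, 8.38 and 8.19 in arf19-1, against 8.65, 8.68 and 8.87 in Col, a difference of -0.41 (SE 0.09, adjusted p = 0.029). In each of these genes every mutant array lay below every Col array. PYE was called in 3 of 6 omissions and AT5G47390 in 2 of 6.

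**Figure D2:**
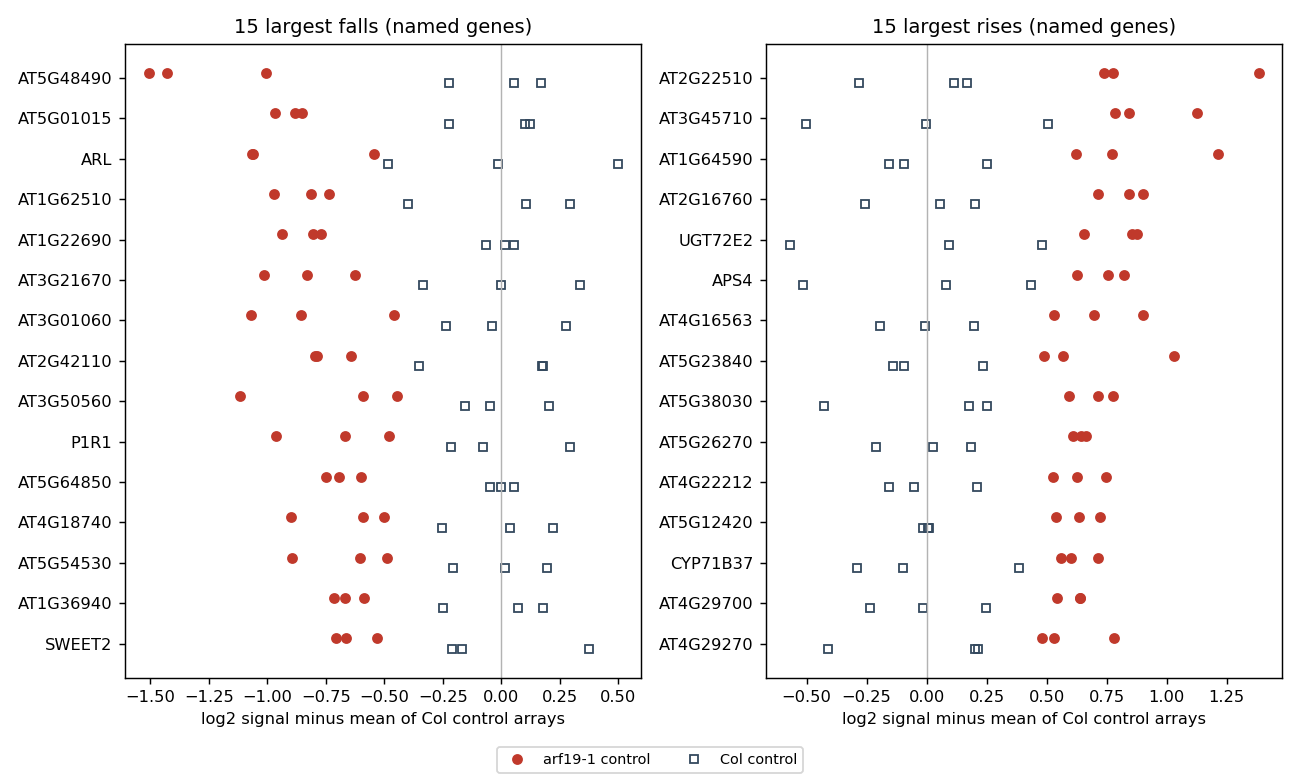
Log2 signal minus the mean of the Col control arrays for the 15 largest falls (left) and the 15 largest rises (right) among called probe sets with 1 gene. Red circles are the 3 arf19-1 control arrays and open squares the 3 Col control arrays. The groups do not overlap for any of the 30 genes, and for many rises the Col arrays are spread more widely than the arf19-1 arrays.

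The rises were smaller. AT2G22510 had the largest rise among named genes, with 6.66, 6.70 and 7.31 in arf19-1, against 6.09, 6.04 and 5.64 in Col, a difference of 0.97 (SE 0.20, adjusted p = 0.027). Col control 3 was at the floor. AT3G45710 had 10.10, 10.05 and 10.38 in arf19-1, against 9.26, 9.77 and 8.76 in Col, a difference of 0.92 (SE 0.21, adjusted p = 0.04). UGT72E2, a glycosyltransferase that adds glucose to monolignols, the building blocks of lignin, had 9.50, 9.28 and 9.48 in arf19-1, against 8.72, 9.10 and 8.05 in Col. The spread lay in the Col arrays (SD 0.53) more than in the arf19-1 arrays (SD 0.12), and the difference was 0.80 (SE 0.18, adjusted p = 0.034). APS4, an ATP sulfurylase of the first step of sulfate assimilation, had 10.99, 10.79 and 10.92 in arf19-1, against 10.25, 10.60 and 9.65 in Col, a difference of 0.73 (SE 0.16, adjusted p = 0.037). AT3G45710, UGT72E2 and APS4 were each called in only 1 of 6 omissions.

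Of the 15 largest rises, AT4G22212 kept its call in all 6 omissions. It had 12.54, 12.42 and 12.32 in arf19-1, against 11.74, 12 and 11.63 in Col, a difference of 0.63 (SE 0.11, adjusted p = 0.0064). AT5G26270 showed little spread in the mutant, with 9.20, 9.16 and 9.22 in arf19-1, against 8.34, 8.58 and 8.74 in Col, a difference of 0.64 (SE 0.12, adjusted p = 0.014). CYP71B37, a cytochrome P450, rose by 0.62 (SE 0.15, adjusted p = 0.049). The other rises were AT1G64590 (0.87), AT2G16760 (0.82), AT4G16563 (0.71), AT5G23840 (0.70), AT5G38030 (0.69), AT5G12420 (0.63), AT4G29700 (0.61) and AT4G29270 (0.60). Of the 30 genes of both directions, 21, 16 and 5 were still called without arf19-1 control 1, 2 and 3 in turn, and 6, 30 and 8 without Col control 1, 2 and 3. The highest adjusted p that any of the 30 reached in an omission was 0.27.

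AT3G59370, singled out after its values were seen, had 6.02, 5.94 and 5.95 in arf19-1 and lay at the floor on all 3 Col arrays, at least 1.25-fold higher (difference 0.33, SE 0.04, adjusted p = 0.0012). AT1G69400, singled out in the same way, had 5.69, 5.65 and 5.64 in arf19-1, against 6.27, 5.93 and 6.29 in Col, a difference of -0.50 (SE 0.09, adjusted p = 0.0061). Both lie close to the floor and were called in all 6 omissions. MSRB5, a methionine sulfoxide reductase, which repairs oxidised methionine in proteins, rose by 0.35 (SE 0.08, adjusted p = 0.043). JAL34, a jacalin-related lectin, rose by 0.33 (SE 0.07, adjusted p = 0.027). MSRB5 and JAL34 were likewise picked after their values were seen.

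None of the 17 tested probe sets of the auxin lists was called, against 0.819% of all probe sets. None had an unadjusted p under 0.05 in limma's test, against 14.6% of all probe sets. Those at the floor in both groups, named below, could not have reached either threshold. With so few probe sets, the lack of a call says little about auxin genes. The lists are incomplete, and those for ARFs, auxin receptors and SAUR genes held no probe set. Of the 76 probe sets called lower in arf19-1, none in these lists, 20 were called higher and 16 lower with IAA in Col. By sign alone, 30 of the 76 lay higher and 46 lower, against 50.2% and 49.8% of all probe sets. Of the 53 called higher in arf19-1, 3 were called higher and 13 lower with IAA in Col, and by sign alone 24 lay higher and 29 lower. Those counts share the Col control arrays with the comparison, so they are a description only. The share of all probe sets called with IAA in Col is not given here to set beside them. Whether auxin-responsive genes as a whole are unchanged in arf19-1 was not tested. Among the Aux/IAA repressors, IAA18 averaged 7.62 ± 0.12 in arf19-1 and 7.67 ± 0.18 in Col (SD, n = 3 each), while IAA20, IAA29, IAA30 and IAA34 lay at the floor in both groups. Among the GH3 enzymes, which conjugate auxin or jasmonate to amino acids, GH3.17 averaged 8.96 ± 0.37 in arf19-1 and 8.55 ± 0.29 in Col (SD, n = 3 each), a difference of 0.41 (SE 0.21, adjusted p = 0.39). GH3.3 averaged 7.36 ± 0.35 in arf19-1 and 7.38 ± 0.44 in Col (SD, n = 3 each), WES1 differed by 0.33 (SE 0.37, adjusted p = 0.72), and GH3.1 lay at the floor in both groups. The lateral root factors LBD29 and PUCHI were at the floor in both groups, and LBD16 averaged 6.35 ± 0.05 in arf19-1 and 6.49 ± 0.12 in Col (SD, n = 3 each), a difference of -0.14 (SE 0.13). The kinase gene WAG2, which acts on auxin transport, differed by -0.13 (SE 0.20), the auxin synthesis gene YUC6 by 0.31 (SE 0.17) and the homeodomain-leucine zipper genes HAT2 and PHV by -0.16 (SE 0.11) and -0.28 (SE 0.14). ILR3, a bHLH transcription factor, differed by -0.16 (SE 0.08, adjusted p = 0.36). The sign of the IAA18, GH3.3, WES1 and WAG2 differences changed when a single array was left out. A gene at the floor in both groups has no measured difference.

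Several of these auxin genes were raised by IAA in the same series, so their probe sets can report a rise. IAA29 and PUCHI lay at the floor on all 6 control arrays, so their rises are lower bounds. A fall of these genes in arf19-1 without IAA could not have been seen. IAA29 rose by at least 3.60 (SE 0.14, adjusted p = 5.3e-14) in arf19-1 given IAA and by at least 4.24 (SE 0.14, adjusted p = 2.7e-15) in Col given IAA. PUCHI rose by at least 0.30 (SE 0.08, adjusted p = 0.013) in arf19-1 and by at least 1.45 (SE 0.08, adjusted p = 9.7e-12) in Col. These responses are given only to show that the probe sets respond, since they share the control arrays with the comparison.

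In the cell wall lists, 1 of 9 tested XTH probe sets was lower and none higher, with a list median of -0.16. Over all probe sets 0.482% were called lower and 0.336% higher, and single calls in lists of these sizes are a description only. XTH enzymes cut and rejoin xyloglucan chains in the growing wall. The called member, XTH33, had 5.97, 5.94 and 5.71 in arf19-1, against 6.37, 6.53 and 6.61 in Col, a difference of -0.63 (SE 0.10, adjusted p = 0.0047), and was called in 5 of 6 omissions. Of 13 expansins, which loosen walls at acid pH, 1 was higher and none lower. The called expansin, EXPB1, had 7.15, 6.88 and 6.90 in arf19-1, against 6.30, 6.82 and 6.17 in Col, a difference of 0.55 (SE 0.12, adjusted p = 0.035). Its lowest arf19-1 array and Col control 2 nearly met, and it was called in 1 of 6 omissions. EXPA8, picked after its values were seen, differed by -1.05 (SE 0.27, adjusted p = 0.069), with 7.79, 7.49 and 6.83 in arf19-1 and 8.62, 7.68 and 8.96 in Col, which overlap. No member was called among 8 GH9 glucanases, 18 TBL probe sets, 3 pectin methylesterases or inhibitors and 2 wall structural proteins. The same held for the 9 probe sets of the cellulose synthase list, which are CSL genes together with IRX15, IRX15-L and GUT2. Of 5 class III peroxidases, 1 was higher: AT5G66390 (PRX72) had 8.86, 8.82 and 8.84 in arf19-1, against 8.42, 8.35 and 8.25 in Col, a difference of 0.50 (SE 0.10, adjusted p = 0.025), called in 1 of 6 omissions.

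Among the metabolic lists, 27 of 34 UGT glycosyltransferase probe sets lay higher in arf19-1, with a median of 0.22 against 0.007 over all, but only UGT72E2 was called. Over all probe sets 54.1% lay higher. The UGT median was 0.13 without Col control 3, and with IAA 16 of the 34 lay higher in arf19-1 than in Col, with a median of 0. Single members were called in 13 P450 probe sets (CYP71B37, higher), 13 sugar and carbon status probe sets (SWEET2, lower), 10 nutrient probe sets (AT3G21670, lower) and 2 MYB probe sets (AT5G47390, lower). No member was called among 12 glutathione transferases, where GSTU26 differed by 0.68 (SE 0.18, adjusted p = 0.08), nor among 14 defence probe sets. None was called in the 13 probe sets of the glucosinolate and camalexin list. That list holds mostly beta-glucosidase (BGLU) genes beside GTR1, GTR2 and BCAT4, so it says little about the pathway. In the defence list PDF1.2, a defensin, had 5.64, 7.52 and 7.11 in arf19-1 and was at the floor on all 3 Col arrays, so that the groups met at arf19-1 control 1 (adjusted p = 0.27).

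Transcripts of the plastid genome leaned upward without passing the test. Of 68 tested probe sets 60 lay higher in arf19-1, against 54.1% of all probe sets, and the median difference was 0.40. An unadjusted p under 0.05 was reached by 18 of them, against 14.6% of all probe sets, and none was called. The summed linear signal was 105000 to 155000 in arf19-1 and 79900 to 112000 in Col, which overlap. The median was 0.17 without arf19-1 control 3 and 0.60 without arf19-1 control 2. The gene of the large Rubisco subunit, rbcL, had 8.68, 8.35 and 10.42 in arf19-1 and 7.42, 9.22 and 8.10 in Col, with arf19-1 control 3 well above the rest (adjusted p = 0.35). Of the 8 nuclear photosynthesis probe sets, 6 lay lower and 2 higher, the median was -0.06 and none was called. With IAA, 64 of the 68 plastid probe sets lay higher in arf19-1 than in Col, with a median of 0.44 and 1 called. Between the double mutant and nph4-1, both without IAA, the median of the 68 was -0.17.

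In the remaining lists of hormone, stress and factor genes no member was called. The largest differences were those of the zinc-finger gene STZ (-0.98, SE 0.32, adjusted p = 0.16), the stomatal peptide gene STOMAGEN (-0.92, SE 0.22, adjusted p = 0.053), the pyruvate decarboxylase gene PDC2 (0.88, SE 0.30, adjusted p = 0.17) and the flavonoid gene DFR (0.80, SE 0.38, adjusted p = 0.34). LTI30, a dehydrin, differed by 0.71 (SE 0.19, adjusted p = 0.072), and GID1A, a gibberellin receptor, by 0.64 (SE 0.25, adjusted p = 0.22). List medians lay between -0.01 and 0.02 for the 5 bHLH, 6 WRKY and 13 bZIP probe sets. The 2 root hair expansins EXPA18 and EXPA7 differed by 0.37 (SE 0.23) and 0.27 (SE 0.19).

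**Figure D3:**
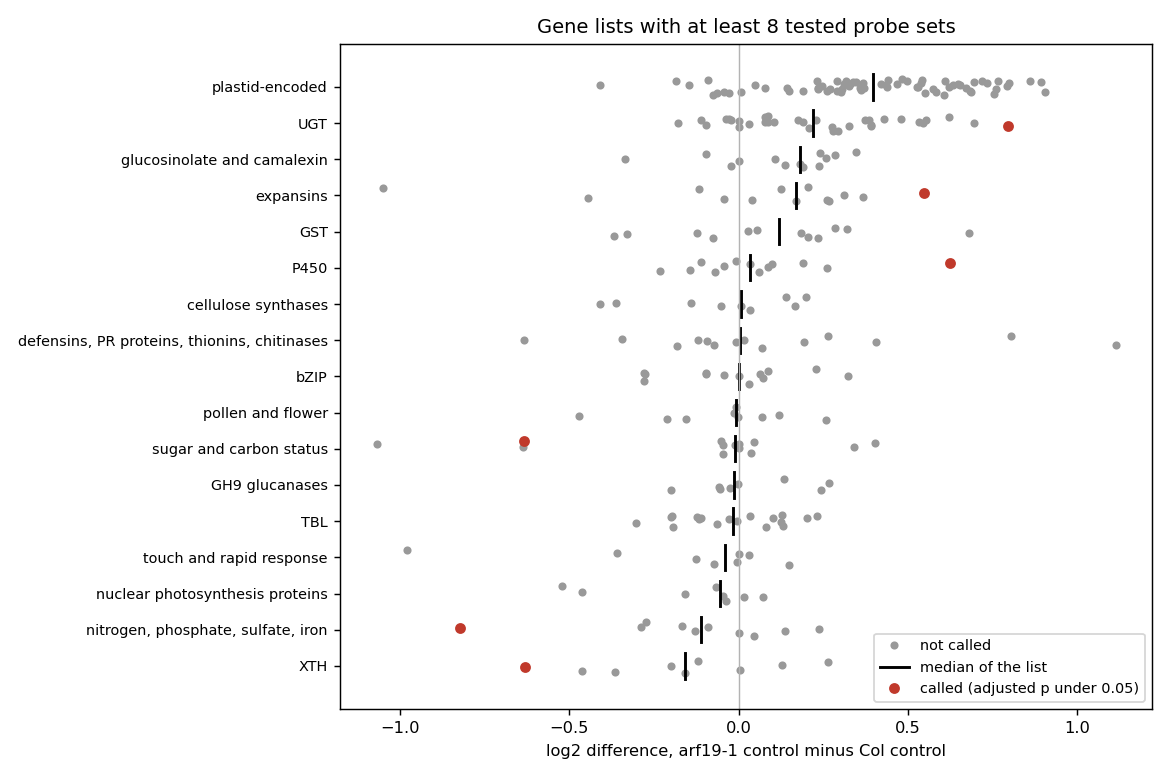
Log2 difference, arf19-1 control minus Col control, of every tested probe set in the gene lists with at least 8 tested. Grey points are not called, red points are called, black bars are list medians. Medians run from -0.16 for XTH to 0.40 for plastid-encoded transcripts, and no list holds more than 1 called member.

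The same genotype difference was then read on the arrays of arf19-1 and Col seedlings given IAA. None of these arrays enters the means compared above, but all 24 arrays set the spread of the fit by which the 129 were called, so the readings are not wholly independent of that choice. There 246 probe sets were called (1.56%), 112 higher (0.711%) and 134 lower (0.85%). Of the 129 probe sets called without IAA, 117 had the same sign with IAA (90.7%, against 64.7% of all probe sets tested), and 28 were called in the same direction, 12 higher and 16 lower. None was called in the opposite direction, 8 had the opposite sign and the rest showed no difference. The IAA groups did not overlap, in the same direction, for 36 of the 53 higher probe sets (13% of all) and 45 of the 76 lower ones (11.6% of all). Median differences with IAA were 0.33 for the higher set and -0.29 for the lower set, smaller than the 0.61 and -0.63 on the arrays that chose them. The labels do not say whether arrays with and without IAA came from the same cultures.

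Named genes called in both treatments were AT1G62510, AT1G22690, AT3G01060, AT4G18740, XTH33, HPR and AT2G47550 among the falls, and AT5G26270 and AT1G64590 among the rises. HPR differed by -0.70 with IAA (adjusted p = 0.00017), AT1G22690 by -0.70 (adjusted p = 0.0031), AT3G01060 by -0.78 (adjusted p = 0.0099) and XTH33 by -0.47 (adjusted p = 0.024). AT2G47550, named here because it is in both sets, had 6.42, 6.52 and 6.25 in arf19-1 control, against 7.22, 6.84 and 6.95 in Col control, a difference of -0.61 (SE 0.12, adjusted p = 0.022), and -0.95 with IAA (adjusted p = 8.9e-05). Of the 30 genes with the largest changes, 28 kept their sign with IAA and 6 were called. ARL and P1R1, which were lower without IAA, differed by 0.07 (SE 0.21) and 0.10 (SE 0.14) with it. ARL rose with IAA by 2.30 (SE 0.21, adjusted p = 5.8e-08) in arf19-1 and by 1.34 (SE 0.21, adjusted p = 7.8e-05) in Col, and its arrays then overlapped, with 10.52, 10.70 and 10.23 in arf19-1, against 10.70, 10.29 and 10.23 in Col. The difference between treatments was itself tested: over all probe sets 41 were called (0.26%), of which 2 belong to the 129, namely 256010_at and AT3G59370.

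**Figure D4:**
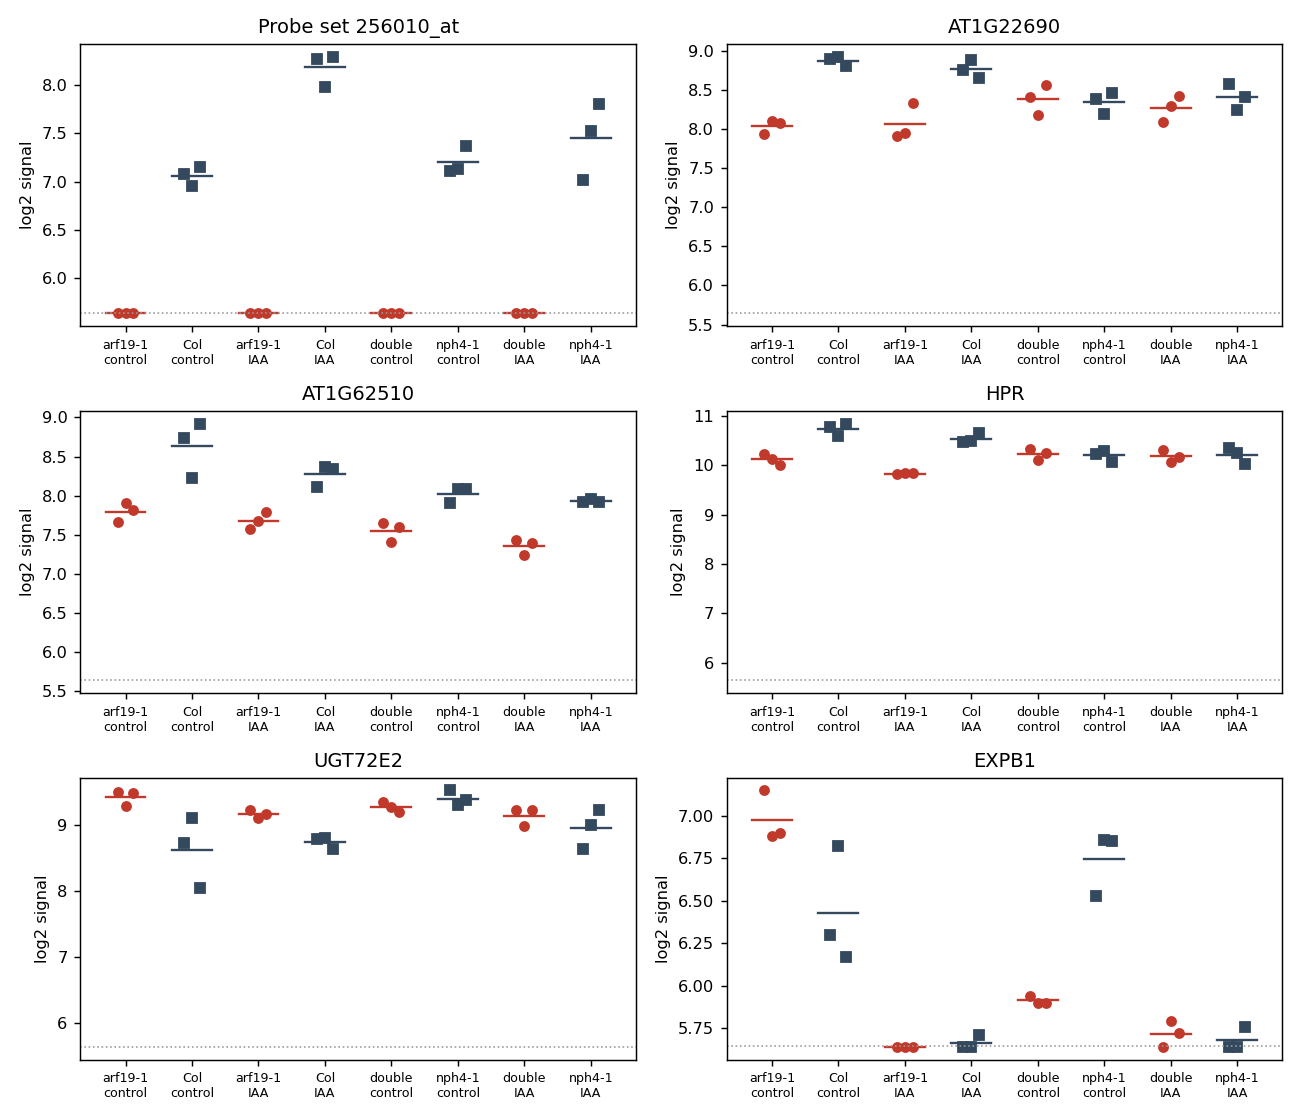
Log2 signal on each of the 24 arrays, 3 a group, for probe set 256010_at and 5 named genes. Red circles are groups that carry arf19-1, dark squares groups that do not, horizontal bars group means, and the dotted line the floor at 5.64. Probe set 256010_at lies at the floor in every red group, AT1G22690 and HPR are lower in arf19-1 than in Col with and without IAA but not in the double mutant against nph4-1, and EXPB1 is higher in arf19-1 than in Col without IAA and lower in the double mutant than in nph4-1.

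The arrays of the double mutant and nph4-1 likewise entered the choice of the 129 through the spread of the fit alone. Between the double mutant and nph4-1, both given solvent, 386 probe sets were called (2.45%), 139 higher (0.882%) and 247 lower (1.57%). Of the 129 probe sets, 64 had the same sign there (49.6%, against 49.4% of all), 2 were called in the same direction and 7 in the opposite direction. The groups did not overlap, in the same direction, for 8 of the 53 higher probe sets (9.68% of all) and 11 of the 76 lower ones (10.2% of all), and the median differences were -0.10 and -0.02. The share of the 129 that kept its sign in the nph4-1 background was thus near that of all probe sets.

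The pair called in the same direction in both backgrounds was 256010_at and XTH33. XTH33 lay at the floor on all 3 double mutant arrays, against 6.21, 5.94 and 6.07 in nph4-1, and 256010_at also lay at the floor in the double mutant, so both differences are bounds. XTH33 fell by at least 0.43 (SE 0.10, adjusted p = 0.03) in the double mutant relative to nph4-1, and 256010_at by at least 1.56 (SE 0.13, adjusted p = 2.6e-07). XTH33 and 256010_at were thus lower with arf19-1 in Col without IAA, in Col with IAA and in nph4-1 without IAA. Among those called in opposite directions were EXPB1 at -0.83 (adjusted p = 0.0003), AT5G66390 at -0.83 (adjusted p = 6.5e-05) and JAL34 at -0.32 (adjusted p = 0.014), all higher in arf19-1 than in Col but lower in the double mutant than in nph4-1. AT1G62510 differed by -0.47 (SE 0.13, adjusted p = 0.064) and AT1G22690 by 0.04 (SE 0.12). The difference between the backgrounds, tested as an interaction over all probe sets, was called for 346 (2.2%), of which 56 belong to the 129, 28 from each direction. This interaction uses the arrays by which the 129 were chosen, so that its count among them is a description.

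**Figure D5:**
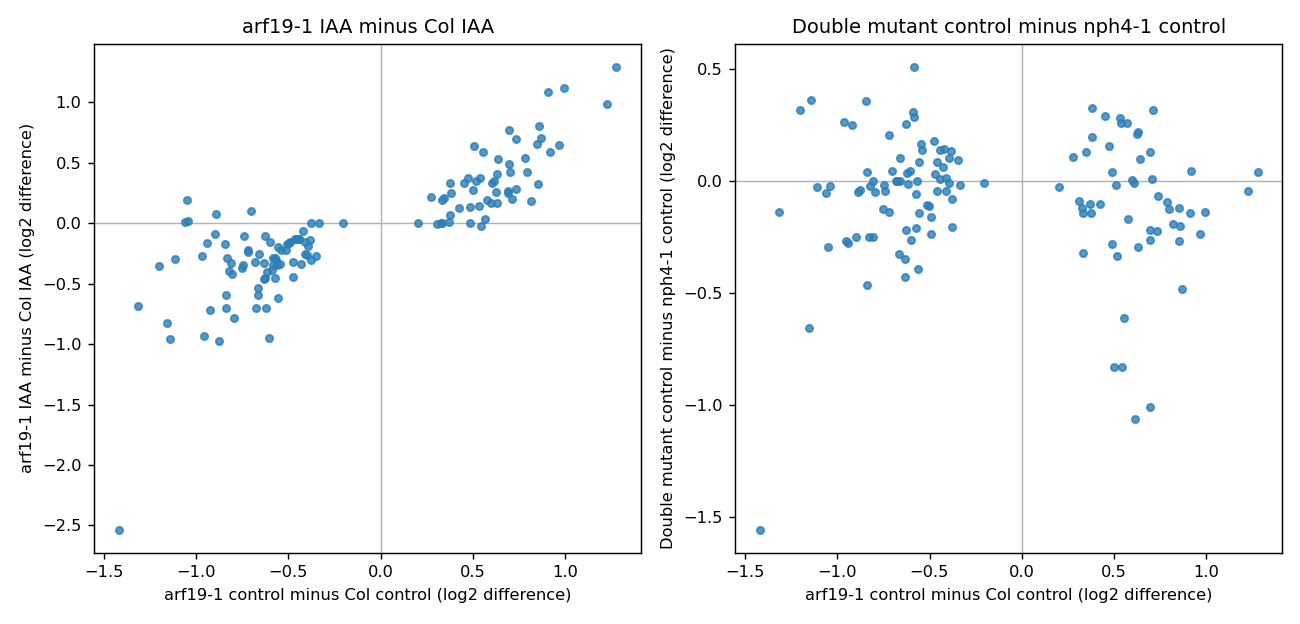
Log2 differences of the 129 called probe sets (points) on arrays outside the means compared, against their difference between arf19-1 control and Col control on the horizontal axis. Left, arf19-1 IAA minus Col IAA, where 117 have the same sign. Right, double mutant control minus nph4-1 control, where 64 have the same sign.

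The nph4-1 control arrays can be set beside arf19-1 against the same Col control arrays. Of the 129 probe sets, 127 had the same sign in nph4-1 against Col and 2 the opposite sign. There 78 were called in the same direction and 0 in the opposite direction. For the double mutant without IAA against Col, 116 of the 129 had the same sign and 12 the opposite sign. In that comparison 82 were called in the same direction and 2 in the opposite direction. Most of the 129 thus also set Col control apart from these mutants. The 129 were chosen on those Col arrays, which all these comparisons share, so these counts are a description only. AT2G22510 averaged 6.89 in arf19-1 control and 5.93 in Col control, and nph4-1 differed from Col by 1.31 (SE 0.20, adjusted p = 0.002). ARL differed from Col by -0.89 in arf19-1 and by -1.02 (SE 0.21, adjusted p = 0.011) in nph4-1. UGT72E2 differed from Col by 0.80 in arf19-1 and by 0.77 (SE 0.18, adjusted p = 0.022) in nph4-1. AT1G22690 differed from Col by -0.84 in arf19-1 and by -0.53 (SE 0.12, adjusted p = 0.027) in nph4-1, HPR by -0.62 and by -0.54 (adjusted p = 0.0046). The probe set 256010_at differed from Col by -1.42 in arf19-1 and by 0.14 (SE 0.13, adjusted p = 0.61) in nph4-1. EXPA8 differed from Col by -1.05 in arf19-1, which was not called, and by -2.04 (adjusted p = 0.00038) in nph4-1. How much of the likeness rests on the shared Col arrays was not tested.

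The means behind the IAA responses of nph4-1 and the double mutant hold none of the 6 arrays compared, and their arrays too are part of the fit's spread. In nph4-1, IAA raised 271 probe sets (1.72%) and lowered 126 (0.8%). Of the 76 probe sets lower in arf19-1 without IAA, 16 were called higher and 1 lower with IAA in nph4-1, and 59 lay higher, against 51.2% of all probe sets. Of the 53 probe sets higher in arf19-1, 7 were called lower and 0 higher, and 39 lay lower, against 46.4% of all. ARL rose by 1.15 (SE 0.21, adjusted p = 0.0019), AT3G50560 by 0.72 (SE 0.15, adjusted p = 0.0067) and AT1G36940 by 0.53 (SE 0.13, adjusted p = 0.022) in nph4-1 given IAA. In the double mutant 53 probe sets were called higher (0.336%) and 13 lower (0.0825%), and 3 of the 76 and 0 of the 53 were among them.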

How the data were processed

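The deposited values are log2 signal per probe set, 1 column per array, with a floor at a linear signal of 50. How the authors summarised and scaled the arrays is not given in the sources used here, and no further scaling was applied. Probe sets were named through the platform annotation supplied, which pairs 13513 with 1 gene and 503 with several; of the 13513, 13436 were found in a RefSeq table of assembly TAIR10.1, used for names and gene order only. In R 4.3.3, limma 3.58.1 fitted 1 mean per group across the 24 arrays (16 residual degrees of freedom), followed by eBayes with its trend and robust options, and the procedure was tested on simulated data. Tests are two-sided, with Benjamini-Hochberg adjustment within each contrast over 15757 probe sets. Named genes are the 15 largest rises and falls among called probe sets with 1 gene, up to 4 called members per list (the 2 largest differences where none was called), and every tested auxin member; exceptions are marked. The members and the 54 gene lists were chosen with earlier results of these data known, and the list patterns were narrowed after the annotation was read. Same-numbered arf19-1 and Col control arrays deviated from their group means with correlations of -0.04, 0.01 and -0.24, so the numbers were not taken to pair arrays. Between unlike numbers the correlations ran from -0.34 to 0.31. The value was 0.31 for arf19-1 control 1 with Col control 3 and for arf19-1 control 3 with Col control 2. Whether arrays with unlike numbers were handled together was not tested. The number of arrays limits the precision.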

Additional observations from a re-analysis of the deposited data

Results flagged for a closer look

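For 17 tested differences of genes or probe sets named above, the arf19-1 effect itself differed between treatments or between backgrounds in an interaction test of the same limma fit (adjusted p under 0.05). These tests reuse the control arrays by which the genes were chosen. With IAA minus without IAA, the arf19-1 effect differed by -1.12 (SE 0.19, adjusted p = 0.0052) for 256010_at, whose floor in arf19-1 bounds both differences, and by -0.33 (SE 0.06, adjusted p = 0.012) for AT3G59370, which lay at the floor in both groups given IAA.

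In the nph4-1 background minus the Col background, both without IAA, the effect differed in the negative direction for 12 genes or probe sets that were higher in arf19-1 than in Col. The value was -1.38 (SE 0.17, adjusted p = 9.3e-05) for EXPB1, -1.33 (SE 0.15, adjusted p = 3e-05) for AT5G66390 and -0.66 for JAL34. EXPB1, AT5G66390 and JAL34 were also called lower in the double mutant than in nph4-1. The value was -1.35 for AT1G64590, -1.24 for 249202_at, -1.20 for AT2G22510, -1.01 for AT2G16760, -0.96 for both APS4 and AT5G38030, -0.93 for AT4G22212, -0.62 for AT4G29700 and -0.45 for AT3G59370. In the positive direction, among those lower in arf19-1 than in Col, the effect differed by 1.52 for 247925_at, 0.88 for AT1G22690 and 0.65 for HPR.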

How the results depend on the processing

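Of the 125 genes or probe sets followed under each alternative, 47 were called and 78 were not. The arf19-1 and Col arrays of the 47 did not overlap, so leaving out or weighting arrays could not change their direction. None of the 47 changed direction under the other alternatives either. Those of the 78 at the floor in both groups had no direction to change. Among the 78, 9 changed direction. Over the 6 omissions these ran from -0.15 to 0.02 for IAA18, -0.03 to 0.65 for WES1, -0.23 to 0.21 for GH3.3, -0.28 to 0.05 for WAG2, -0.04 to 0.37 for GID1B, -0.08 to 0.14 for AT3G09000, -0.04 to 0.28 for GI, -0.31 to 0.10 for UGT80B1 and -0.05 to 0.05 for CDC27a. With array weights IAA18 was 0.10, GH3.3 0.03 and AT3G09000 -0.17, and with the median shift AT3G09000 was -0.01. For arf19-1 against Col without IAA, the count of 129 became 79 with no filter on floor probe sets, 1 on the 6 arrays alone, 211 with array quality weights, 29 at an adjusted p under 0.01 and 11 with a 2-fold minimum, and it ran from 28 (without arf19-1 control 3) to 927 (without Col control 2) as arrays were left out. Array weights were 0.55, 7.9 and 0.58 for the arf19-1 control arrays and 0.71, 0.36 and 0.19 for the Col control arrays. Under the replicate block the count was 201, with 124 of the 129 still called. For arf19-1 against Col with IAA, the count of 246 became 162 with no filter, 95 on its 6 arrays, 379 with the replicate block, 927 with array weights, 108 at an adjusted p under 0.01 and 30 with a 2-fold minimum, and ran from 120 to 270 over its omissions. For the double mutant against nph4-1, 386 became 2084 with array weights, 174 at an adjusted p under 0.01 and 55 with a 2-fold minimum, and ran from 181 to 339. The interaction with IAA, 41 probe sets, gave 27 with the dim filter, 22 on the arrays compared, 27 at an adjusted p under 0.01 and 19 with a 2-fold minimum, and 32 to 46 over omissions. The interaction with nph4-1, 346, gave 188 on the arrays compared, 835 with array weights, 146 at an adjusted p under 0.01 and 134 with a 2-fold minimum, and 206 to 493 over omissions. The share of called probe sets with the same sign with IAA, 90.7%, was 100% for the single probe set called on the 6 arrays alone and ran from 87.4% to 96.7% over omissions. In the nph4-1 background it was 49.6%, 100% for that single probe set, and 38.9% to 59.9% over omissions. Beyond fewer arrays or probe sets in a fit, the causes were not tested. These interaction counts and shares under alternatives were added after the data were seen.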

Other observations

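The genes next to ARF19 on chromosome 1 were read in gene order. Among probe sets paired with the 50 protein-coding genes on either side, 37 were tested and 2 were called (5.41%, against 0.72% of probe sets with 1 gene). AT1G19450 had 9.58, 9.49 and 9.57 in arf19-1, against 9.83, 9.88 and 10.06 in Col, a difference of -0.38 (SE 0.08, adjusted p = 0.034). AT1G19540 had 6.81, 6.61 and 6.72 in arf19-1, against 7.33, 7.04 and 7.55 in Col, a difference of -0.60 (SE 0.14, adjusted p = 0.049). With IAA the same genes differed by -0.31 (adjusted p = 0.066) and -0.15 (adjusted p = 0.69), and between the double mutant and nph4-1 by -0.08 (adjusted p = 0.87) and -0.26 (adjusted p = 0.56). The window and both genes were chosen after their values were seen, each gene was called in 1 of 6 omissions, and no test was made of the share.

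Apart from 256010_at, the unnamed probe sets with the largest differences were 249202_at and 249203_at upward and 247925_at downward. Probe set 249202_at had 7.83, 7.86 and 8.50 in arf19-1, against 6.50, 7.08 and 6.77 in Col, a difference of 1.28 (SE 0.20, adjusted p = 0.0034), and 1.29 with IAA (adjusted p = 0.00069). It was called in all 6 omissions. Probe set 249203_at differed by 1.23 (SE 0.29, adjusted p = 0.046), and 247925_at by -1.20 (SE 0.25, adjusted p = 0.025). Those last probe sets were called in 1 and 3 of the 6 omissions.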
